A study of Mus musculus with 12 samples.

Results

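The Notch genes examined here were 3 receptors (Notch1, Notch2 and Notch4), 4 ligands (Jag1, Jag2, Dll1 and Dll4) and 3 target genes (Hey1, Hey2 and Heyl), taken by symbol from the 25284 genes of the deposited count table. All 10 had a row, and all 10 were among the 15857 genes with enough counts to be tested. The samples were thoracic aortas of 12 male ApoE-/- mice on a C57BL/6 background, aged 18 weeks and fed a high fat, cholesterol enriched diet. In the AZ6983 group, 6 mice received AZ6983, an agonist of the α7 nicotinic acetylcholine receptor (α7nAChR), delivered by osmotic minipump over 8 weeks at a daily dose of 50 µmol per kg. In the control group, 6 mice received the cyclodextrin and saline vehicle from the same kind of pump for as long. Every mouse of both groups lacked apolipoprotein E, which clears lipoprotein particles from blood, so both groups were a model of diet-driven atherosclerosis and no mouse with intact Apoe was compared. The mice are called C1 to C6 (control) and A1 to A6 (AZ6983).

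Notch receptors sit in the cell membrane and are switched on by Jagged and Delta-like ligands on a neighbouring cell. The bound receptor is cut, first by an ADAM protease and then by γ-secretase, and its released inner part goes to the nucleus, where it joins the DNA-binding protein RBPJ and turns on repressors of the Hes and Hey families. In arteries the pathway sets the arterial identity of endothelial cells and takes part in the differentiation of smooth muscle cells, and it is also needed for T cells to form in the thymus.

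Between 25641329 and 29131708 reads were counted on genes in control mice, and between 23810036 and 35864666 in AZ6983 mice. Counts were scaled to CPM, the read count relative to the library's effective total, by edgeR's TMM method. All 8 smooth muscle markers and all 10 endothelial markers examined were measured in every mouse, with summed levels of 14937 to 20034 CPM and 873 to 1078 CPM in controls and of 11761 to 20015 CPM and 933 to 1073 CPM in AZ6983 mice. 3 libraries stood apart or were in doubt. The column used for A1 carries 3 of the 4 digits of that mouse's number, A4 held the highest level of thymocyte markers, and A5 had the lowest TMM factor, 0.837, where the others lay between 0.987 and 1.07. By the mean log2 CPM of marker lists, A5 was also the highest mouse for brown fat (8.70). It was the lowest for smooth muscle (9.75), macrophage (5.55) and adventitial fibroblast markers (8.27). Ucp1, a brown fat gene, was at 1834 to 3034 CPM in controls and 1228 to 3728 CPM in AZ6983 mice, highest in A5. The other 5 AZ6983 mice lay below every control for Ucp1 (exact permutation p = 0.0541, two-sided). The brown fat score did not differ between the groups beyond the spread between mice (exact permutation p = 0.379). The share of reads that fell on no gene, called the no-gene share here, was 8.02% to 12.7% in controls and 11.2% to 14.9% in AZ6983 mice, and it differed between the groups (exact permutation test, two-sided, p = 0.0108). Apoe itself still had 117 to 306 reads in controls and 214 to 311 with AZ6983, and Chrna7, which encodes the α7 subunit, had 27 to 114 and 19 to 76. In the annotation, Notch1, Notch2, Notch4, Dll1 and Dll4 overlap other genes besides miRNAs, and the strand setting of the counting is not stated, so reads of the overlapping stretches may be assigned or lost either way.

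Measured per length, the Notch genes of the aorta spanned a wide range of levels. On the scale of CPM per kb of annotated exon, Notch2 was the most abundant, at 20.2 ± 3.05 (SD, n = 12 mice), and it lay above Heyl in 12 of 12 mice. Heyl, at 13.3 ± 2.88, and the ligand Jag1, at 13.2 ± 1.75, did not differ beyond their spread, with Heyl the higher of the pair in 5 of 12 mice. Hey2 followed at 9.67 ± 1.40, below Jag1 in 11 of 12 mice.

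Among the 10 genes, a step then separated these 4 genes from the other 6. The lowest mouse had 6.32 CPM per kb of Hey2, above the 5.32 of the highest mouse for Notch1, which was next at 4.06 ± 0.668. Notch3, not one of the 10 and described below, lay across this gap, with a mean of 6.70 and a range of 4.37 to 9.20. The length joins the exons of all annotated transcripts, 11 for Notch1 (14232 bases) and 2 for Hey2 (4593 bases), so the step depends on that choice. Dll1 was at 3.35 ± 0.522 and below Notch1 in 9 of 12 mice. Dll4 (2.44 ± 0.617), Notch4 (2.30 ± 0.292) and Hey1 (2.15 ± 0.373) had overlapping ranges, and each was above the next in 8 of 12 mice. Jag2 was the least abundant, at 1.23 ± 0.232, below Hey1 in every mouse. In bulk tissue a low level can come from few cells or from little RNA per cell, and these cannot be told apart.

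**Figure D1:**
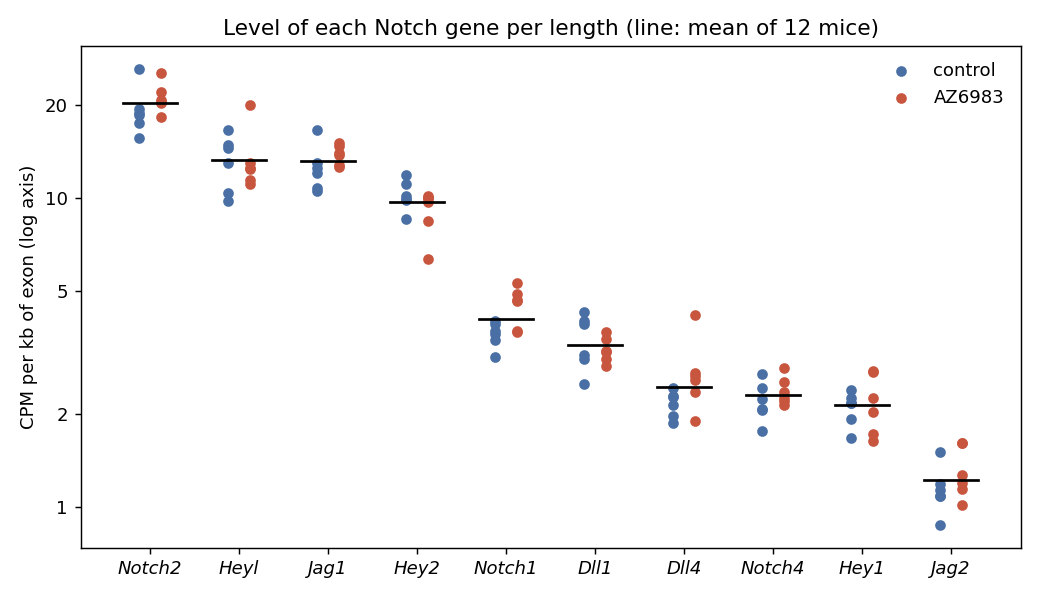
Level of each Notch gene in CPM per kb of annotated exon (vertical log axis), with 1 point per mouse (blue, 6 controls; red, 6 AZ6983 mice) and a line at the mean of the 12 mice. Notch2, Heyl, Jag1 and Hey2 average 9.67 to 20.2, and the other 6 genes 1.23 to 4.06.

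The main question was whether 8 weeks of AZ6983 changed these genes. In edgeR's quasi-likelihood test, with Benjamini-Hochberg adjustment over all 15857 genes, 0 of the 10 passed 10% FDR, and the same count of 0 was found with DESeq2 and with limma-voom. At an unadjusted p under 0.05, edgeR gave 1 of the 10, Notch1, as did DESeq2 and limma-voom. Among all genes tested, 0% passed 10% FDR in edgeR and 10.2% had an unadjusted p under 0.05. At 10% FDR limma-voom also called 0 of all genes, whereas DESeq2 called 92 on every gene and 84 on the filtered genes. The log2 fold changes, AZ6983 against control, were above 0 for 8 of the 10 genes and below 0 for Hey2 and Dll1, with a median of 0.12. Of all genes tested 52.4% were above 0, with a median of 0.01. In none of the 10 genes did the groups separate completely, as they did in 0.41% of all genes tested.

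**Figure D2:**
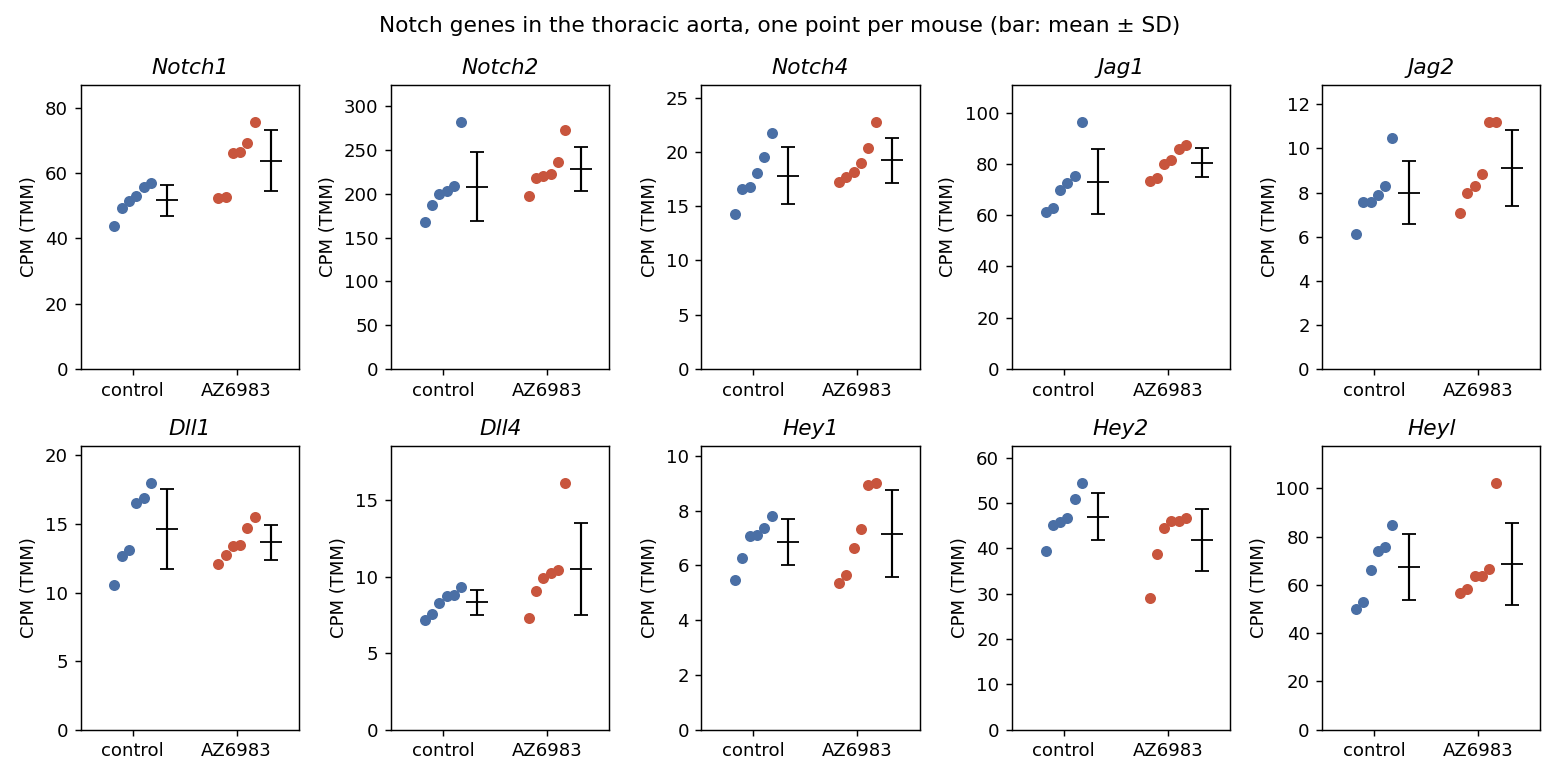
CPM of each Notch gene (vertical axis, from 0) in 6 control mice (blue) and 6 AZ6983 mice (red), 1 point per mouse, with the mean ± SD beside each group. For Notch1 and Dll4, 4 of 6 AZ6983 mice lie above every control, and in the other 8 genes at most 2 do.

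Among the receptors Notch1, Notch2 and Notch4, Notch1 had the largest log2 fold change. Notch1 (chromosome 2, 26457903 to 26516663, minus strand, GRCm38) is used by endothelial cells and is the receptor that commits progenitors to the T cell lineage. It was at 43.7 (lowest), 52.2 (median) and 56.9 CPM (highest) in control mice and at 52.3, 66.3 and 75.7 CPM in AZ6983 mice. The groups overlapped through A1 and A3, which lay within the control range, while A2, A4, A5 and A6 lay above every control. The means were 51.7 ± 4.82 and 63.8 ± 9.35 CPM (SD, n = 6 each), with a log2 fold change of 0.30 (SE, the standard error, 0.0981, unadjusted p = 0.00857, adjusted p = 0.447 from edgeR). The exact permutation test over all assignments of the mice to groups of 6 gave p = 0.0281, two-sided, and p = 0.0541 without A2, 0.0584 without A4 and 0.0606 without A5.

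The Notch1 level was highest in A4, the mouse with the most thymocyte RNA. The summed level of the 9 thymocyte markers, of which 6 passed the filter on low counts, was 1.04 to 25.9 CPM in controls and 2.95 to 1087 CPM in AZ6983 mice, and no marker was at 0 in all mice. Rag1, an enzyme of antigen receptor assembly, was at 577 CPM in A4. The part of thymocyte RNA in the Notch1 difference was not tested beyond leaving A4 out. Without A4 the log2 fold change of Notch1 was 0.25 (unadjusted p = 0.0244, adjusted p = 0.468 from edgeR). Without both A4 and A5 it was 0.19 (unadjusted p = 0.0747, adjusted p = 0.510 from edgeR).

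Notch1 also varied with the no-gene share. Across the 12 mice, Pearson's r between that share and the log2 CPM of Notch1 was 0.731 (permutation p = 0.00667, adjusted over 10 genes 0.0667) and Spearman's rho was 0.650 (permutation p = 0.0247, adjusted 0.124). The r was 0.586 without C1 and A2, the 2 mice farthest from the median share, 0.608 within controls and 0.443 within AZ6983 mice. Among all genes tested, 5.51% had an r at least as high. With the share as a covariate, the log2 fold change of Notch1 was 0.15 (unadjusted p = 0.296 from edgeR), that of Notch2 −0.06 and that of Heyl 0.34. Because the share itself differed between the groups, its part and that of treatment cannot be told apart by this fit. The same limit holds for every value adjusted for the share below.

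Notch2 (chromosome 3, 98013527 to 98150361, plus strand), the most abundant receptor described here, ran from 168 through a median of 201 to 282 CPM in controls and from 198 through 222 to 272 CPM in AZ6983 mice. No AZ6983 mouse lay outside the control range, and C6 was the highest of all 12 mice. Its log2 fold change was 0.13 (SE 0.115, adjusted p = 0.677), and it moved both ways with single mice left out. It was 0.24 without C6 (unadjusted p = 0.0175, adjusted p = 0.344 from edgeR), 0.0603 without A2 (unadjusted p = 0.589) and 0.0762 without C1.

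Notch4 (chromosome 17, 34564268 to 34588503, plus strand), a receptor found mainly in endothelium, was at 14.2, 17.4 and 21.7 CPM (lowest, median, highest) in controls and 17.3, 18.6 and 22.8 CPM in AZ6983 mice. The groups overlapped almost fully, with 1 AZ6983 mouse, A5, above the controls. Its fold change was 0.11 on the log2 scale (SE 0.102, adjusted p = 0.703), and 0.0344 without A5, 0.0503 without C6 and 0.0681 without C2.

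Among the ligands, the Delta-like ligand Dll4 had the largest log2 fold change of the 10 genes with all mice and no covariate. Dll4 (chromosome 2, 119325784 to 119335962, plus strand) is the Notch ligand of arterial endothelium and of the leading cells of vascular sprouts. It was covered by 206 to 269 reads in controls and 197 to 395 in AZ6983 mice, that is 7.18, 8.50 and 9.33 CPM (lowest, median, highest) in controls and 7.31, 10.1 and 16.1 CPM in AZ6983 mice. A5 was far above the rest, A2, A4 and A6 lay just above the highest control, and A1 was near the bottom of the control range. The means were 8.32 ± 0.808 and 10.5 ± 2.98 CPM (SD, n = 6 each), with a log2 fold change of 0.34 (SE 0.158, unadjusted p = 0.0529, adjusted p = 0.496 from edgeR; exact permutation p = 0.0779). This value rested on single mice, being 0.15 without A5 and 0.42 without A1 (unadjusted p = 0.182 and 0.0130). With the no-gene share as a covariate it was 0.18, below the 0.34 of Heyl. Across the 12 mice, Dll4 and that share had a rho of 0.699 (permutation p = 0.0141, adjusted over 10 genes 0.124) and an r of 0.562 (permutation p = 0.0541, adjusted 0.180).

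Dll1 (chromosome 17, 15367354 to 15376872, minus strand), a Delta-like ligand also used in lymphocyte development, went the other way. It was at 10.6, 14.8 and 18.0 CPM in controls and 12.1, 13.4 and 15.5 CPM in AZ6983 mice, so that all AZ6983 mice lay within the control range. Dll1 had a log2 fold change of −0.10 (SE 0.125, adjusted p = 0.791). Leaving out single mice moved it from −0.0288 (without C4) and −0.0594 (without C1) to −0.15 (without C3) and −0.17 (without C6).

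Jag1 (chromosome 2, 137081456 to 137116644, minus strand), the ligand through which endothelial and smooth muscle cells signal to smooth muscle, was at 61.2, 71.3 and 96.4 CPM in controls and at 73.5, 80.8 and 87.5 CPM in AZ6983 mice. The control range enclosed the AZ6983 range, with C6 again the highest mouse. Its log2 fold change was 0.14 (SE 0.1001, adjusted p = 0.607), and it moved both ways with single mice left out. It was 0.23 without C6 (unadjusted p = 0.00643, adjusted p = 0.3304 from edgeR) and 0.0824 without C3 (unadjusted p = 0.408), and 0.0517 with the no-gene share as a covariate.

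Jag2 (chromosome 12, 112907819 to 112929776, minus strand), a second Jagged ligand, was covered by 175 to 304 reads in controls and 181 to 421 in AZ6983 mice. In CPM it was at 6.10, 7.74 and 10.5 in controls and 7.09, 8.57 and 11.2 in AZ6983 mice. A4 and A5 lay above the highest control, C3, and the other 4 within the control range. The log2 fold change was 0.19 (SE 0.145, adjusted p = 0.632) with all mice, between 0.10 and 0.12 without A5, A4 or C1, and −0.00096 without both A4 and A5.

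The Hey genes, whose products bind DNA and repress transcription after Notch activation, had fold changes of both signs. Hey2 (chromosome 10, 30832359 to 30842801, minus strand), which is required for heart and artery development, was at 39.3, 46.1 and 54.4 CPM in controls and 29.0, 45.2 and 46.7 CPM in AZ6983 mice. A5 was the lowest of all 12 mice and A4 the second lowest, while the other AZ6983 mice lay in the control range. The means were 47.0 ± 5.196 and 41.8 ± 6.90 CPM (SD, n = 6 each), with a log2 fold change of −0.17 (SE 0.114, adjusted p = 0.591), and of −0.10 without A5.

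Because RBPJ carries the Notch signal to DNA, the 250 bases before the RefSeq start of each gene were searched for the RBPJ core GTGGGAA and its reverse complement TTCCCAC. RefSeq (GRCm38.p6) held 9 promoter windows for 8 of the 10 genes, all but Hey1 and Heyl. Among these only the Hey2 window had a match, which 5.42% of all 32851 windows had. The Hey2 window is shown because it holds that match and because Hey2 is the target gene treated below. It is chr10:30842802-30843033 on the minus strand, 232 bases without the 18 that GENCODE places inside the gene, with the RBPJ core in capitals, starting at −207 from the RefSeq start.
Hey2: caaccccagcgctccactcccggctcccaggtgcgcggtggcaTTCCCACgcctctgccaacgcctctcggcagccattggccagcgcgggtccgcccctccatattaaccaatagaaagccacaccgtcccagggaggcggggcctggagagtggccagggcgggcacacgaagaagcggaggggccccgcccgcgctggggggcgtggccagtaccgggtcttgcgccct

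Heyl (chromosome 4, 123233556 to 123249875, plus strand), a Hey gene of smooth muscle and pericytes, was at 50.0, 70.1 and 84.8 CPM in controls and 56.6, 63.6 and 102 CPM in AZ6983 mice. A1, the mouse with the incomplete number, was far above the other 5 AZ6983 mice, which lay within the control range. The log2 fold change was 0.0250 (SE 0.163, adjusted p = 0.967), and −0.13 without A1.

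Hey1 (chromosome 3, 8663359 to 8667256, minus strand), the Hey gene of arterial endothelium, was covered by 161 to 210 reads in controls and 144 to 276 in AZ6983 mice. It was at 5.48, 7.09 and 7.81 CPM in controls and 5.36, 6.99 and 9.02 CPM in AZ6983 mice, with A5 and A6 above and A2 below every control. The log2 fold change was 0.06 (SE 0.147, adjusted p = 0.896).

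The rest of the pathway was read from a list of 47 genes, of which 42 were tested. In edgeR 0 of the 42 passed 10% FDR, also with DESeq2 and limma-voom, and 5 had an unadjusted p under 0.05 in each of these tools, 3 higher and 2 lower in AZ6983 mice in edgeR. With a mouse left out this number ran from 2 (without A5) to 7 (without C6), and with the no-gene share as a covariate it was 1. Of all genes tested, 7.38% were higher and 2.81% lower at that p in edgeR with all mice and no covariate. That share was not counted for the other fits. The median log2 fold change of the list was 0.06, with 26 genes above 0 and 16 below. Dll3, Hes2, Hes5, Hes7 and Dlk2 had at most 9 counts in any mouse and were not tested.

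Notch3, the receptor of arterial smooth muscle and pericytes, was one of the genes higher at that p. Notch3 (chromosome 17, 32120820 to 32166852, minus strand) was at 35.3, 47.8 and 58.1 CPM in controls and 48.4, 59.3 and 74.4 CPM in AZ6983 mice. The groups overlapped, with 3 AZ6983 mice above every control (exact permutation p = 0.0368, two-sided). The log2 fold change was 0.35 (SE 0.127, unadjusted p = 0.0177, adjusted p = 0.450 from edgeR), and it was 0.26 without A5 (unadjusted p = 0.0554) and 0.04 with the no-gene share as a covariate.

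Spen, a nuclear protein that binds RBPJ directly and holds its targets silent when Notch is off, was also higher at that p. It was at 32.0, 44.1 and 54.1 CPM (lowest, median, highest) in controls and 39.6, 55.9 and 81.8 CPM in AZ6983 mice. The groups overlapped, with 3 AZ6983 mice above every control, and the log2 fold change was 0.48 (SE 0.188, unadjusted p = 0.0236, adjusted p = 0.450 from edgeR; exact permutation p = 0.0628). The unadjusted p of edgeR was 0.0535 without C1, 0.0519 without C3, 0.0688 without A2 and 0.0735 without A5. The log2 fold change was −0.04 with the no-gene share as a covariate. Rbpj itself and the coactivators Maml1, Maml2 and Maml3 lay between 0.06 and 0.19. In the same role group, Kat2b (−0.05), Snw1 (−0.06) and Cir1 (−0.15) lay below 0. All of these had an unadjusted edgeR p over 0.05.

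Hes1, the classical Notch target of the Hes family, was lower at that p. It was at 14.8, 17.5 and 21.5 CPM in controls and 13.1, 14.2 and 17.1 CPM in AZ6983 mice. In 5 of 6 AZ6983 mice Hes1 was below the lowest control (exact permutation p = 0.0173), with a log2 fold change of −0.31 (SE 0.104, unadjusted p = 0.0103, adjusted p = 0.450 from edgeR). It stayed between −0.37 and −0.25 with each mouse left out in turn, and was −0.29 with the no-gene share as a covariate (unadjusted p = 0.0922). Hes1 responds to several signals besides Notch.

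Aph1b, a subunit of γ-secretase, was the other gene lower at that p, with 34.6 to 41.1 CPM in controls and 25.7 to 37.2 CPM in AZ6983 mice and a log2 fold change of −0.24 (SE 0.0827, adjusted p = 0.450). Aph1b has a near-identical copy, Aph1c, so its count is uncertain. In the other role groups the genes with the smallest unadjusted p were the glucosyltransferase Poglut1 (log2 fold change −0.16, edgeR adjusted p = 0.557), the ubiquitin ligase of ligands Neurl1b (0.25, edgeR adjusted p = 0.548) and the Deltex protein Dtx2 (0.21, edgeR adjusted p = 0.538).

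**Figure D3:**
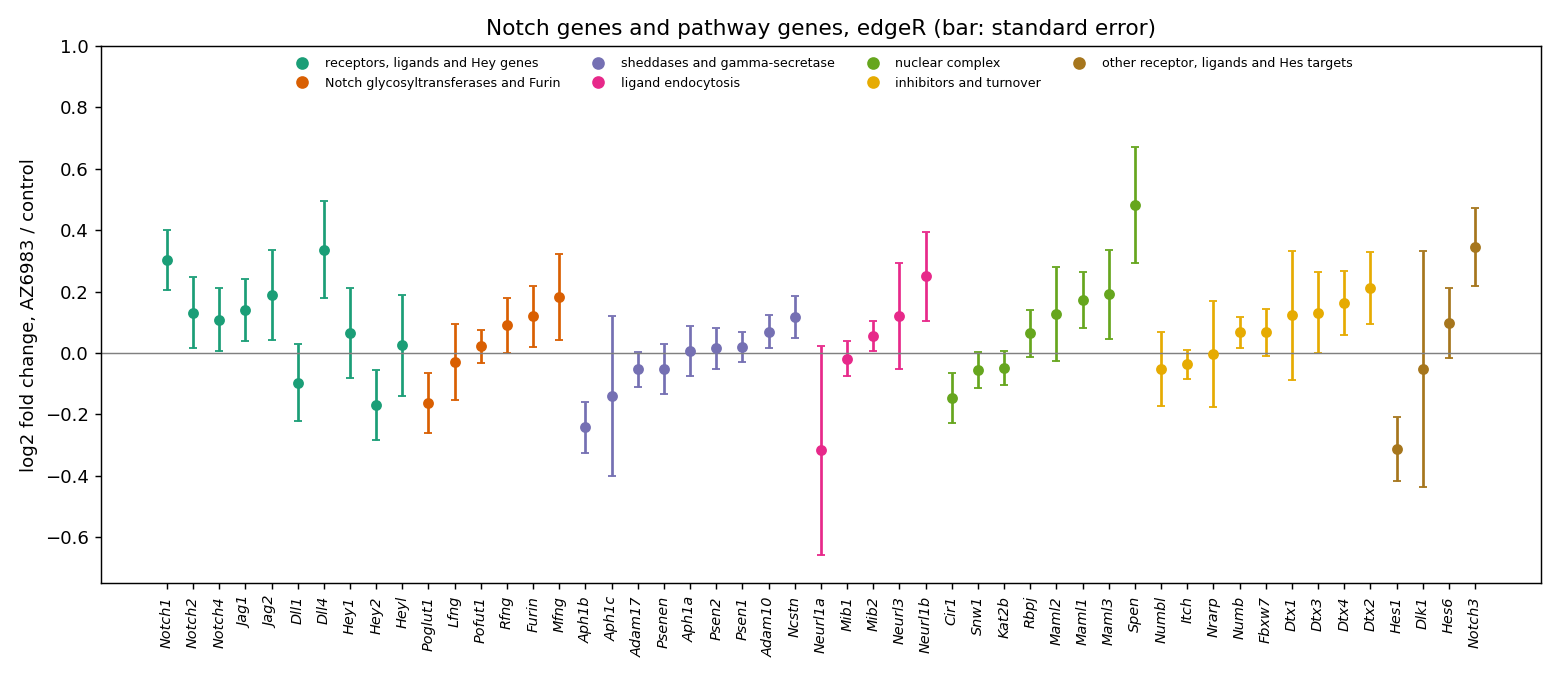
Log2 fold change, AZ6983 against control (vertical axis), of the 10 Notch genes and 41 pathway genes, coloured by role, from edgeR; bars are 1 standard error. Spen lies highest, at 0.48, Hes1 is at −0.31, and none passed 10% FDR.

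A piece of aorta can hold more or less of each cell type, so each Notch gene was compared across the 12 mice with the mean log2 CPM of the endothelial and of the smooth muscle markers. Neither score differed between the groups beyond the spread between mice (exact permutation p = 0.169 and 0.535), and the difference was 0.09 and −0.08 on the log2 scale. Of the 20 relations, 4 had an adjusted permutation p under 0.05 for Pearson's r, and 1 of these also for Spearman's rho. With a mouse left out, between 0 (without C6) and 7 (without A4) passed for Pearson's r. Gene and score were measured in the same library and share its scaling.

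Hey2 followed the smooth muscle markers. Pearson's r was 0.854 (permutation p = 0.00074, adjusted 0.0148) and Spearman's rho 0.881 (permutation p = 0.0003, adjusted 0.00600), and 1.66% of all genes tested had an r at least as high. Within controls r was 0.885 and within AZ6983 mice 0.861. Without A5 and C2, the mice farthest from the median score, r was 0.568. The adjusted permutation p rose above 0.05 without A5 (r 0.699, adjusted p = 0.149) and without C6 (r 0.833, adjusted p = 0.0542), and stayed under it with any other mouse left out.

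Heyl followed them too by rank, with a rho of 0.797 (permutation p = 0.00294, adjusted 0.0294) and an r of 0.674 (permutation p = 0.0161, adjusted 0.0536). Its r was 0.947 within controls, 0.512 within AZ6983 mice and 0.867 without A5 and C2, and 9.42% of genes had an r at least as high.

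Dll4 ran against the smooth muscle markers, with an r of −0.768 (permutation p = 0.00557, adjusted 0.0393) and a rho of −0.566 (permutation p = 0.0579, adjusted 0.247). Within controls r was −0.461, within AZ6983 mice −0.930, and without A5 and C2 −0.562. Without A5 alone it was −0.488, and the adjusted p was over 0.05 in 6 of the 12 fits that left out a mouse.

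Hey1 followed the endothelial markers, with an r of 0.702 (permutation p = 0.00787, adjusted 0.0393) and a rho of 0.622 (permutation p = 0.0346, adjusted 0.231), and with an r of 0.904 within controls and 0.678 within AZ6983 mice. Without A5 and C6, the mice farthest from the median endothelial score, r was 0.469, and in 8 of the 12 fits without a mouse the adjusted p was over 0.05. With all mice, 4.69% of all genes tested had an r at least as high. Notch4 had an r of 0.711 with the same score (permutation p = 0.0132, adjusted 0.0528), and 0.0190 without A5 and C6. Its rho was 0.469 (permutation p = 0.128, adjusted 0.364). The score of 5 arterial endothelial markers was lowest in A5, at 4.45, while the endothelial score was highest there, at 6.16. Within that endothelial list, A5 was the highest mouse for Cdh5 (160 CPM) and Kdr (184 CPM) and the lowest for Pecam1 (373 CPM) and Erg (34.9 CPM). The relation of Hey2 to the same markers, at −0.789 (permutation p = 0.00759, adjusted 0.0393; rho −0.385, permutation p = 0.220), was 0.0210 without A5 and C6 so that it rested on those mice. With all mice, 0.889% of all genes tested had an r at least as low. With the endothelial score as a covariate, the treatment difference of Hey1 was −0.11, that of Notch4 −0.00010 and that of Notch1 0.30, on the log2 scale. In the same edgeR fit it was 0.25 for both Notch2 (unadjusted p = 0.0433, adjusted p = 0.260) and Jag1 (unadjusted p = 0.0226, adjusted p = 0.206). There 3 of the 10 Notch genes had an unadjusted p under 0.05, and 0 passed 10% FDR. Calls rose over all genes too, with 481 at 10% FDR in that fit against 0 without the covariate. The share of all genes at that unadjusted p was not counted for that fit.

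**Figure D4:**
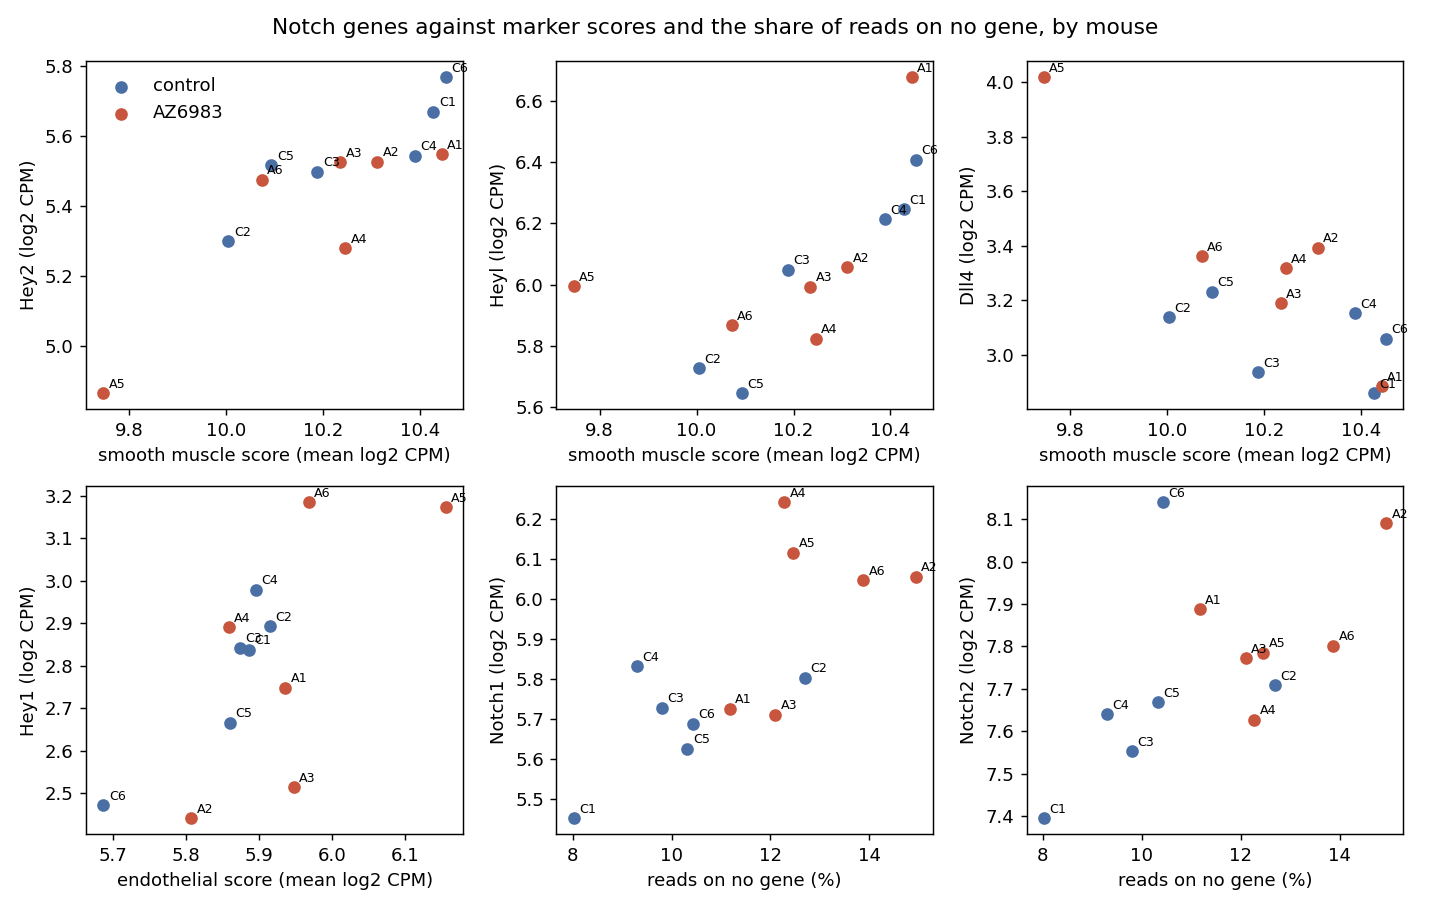
Log2 CPM of Hey2, Heyl and Dll4 against the smooth muscle score, of Hey1 against the endothelial score, and of Notch1 and Notch2 against the no-gene share (%), with 1 labelled point per mouse (blue, control; red, AZ6983). A5 lies at the far left of the 3 smooth muscle panels, where Hey2 is lowest and Dll4 highest.

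Among themselves the Notch genes varied together in few pairs. Of the 45 pairs, 1 had an adjusted permutation p under 0.05 for Pearson's r, the receptor Notch2 with the ligand Jag1. Their r was 0.924 (adjusted p = 0.00225, permutation) and their rho 0.895 (adjusted p = 0.00810, permutation), with an r of 0.938 within controls, 0.866 within AZ6983 mice and 0.911 without C6 and C3. Notch1 and Jag2 had an r of 0.771 (adjusted p = 0.0732, permutation) and a rho of 0.839 (adjusted p = 0.0229, permutation), with r falling to 0.550 without A4 and A5. Dll4 and Hey2 were the most opposed pair, with an r of −0.815 (adjusted p = 0.0732, permutation), which was −0.455 without A5 and C6.

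**Figure D5:**
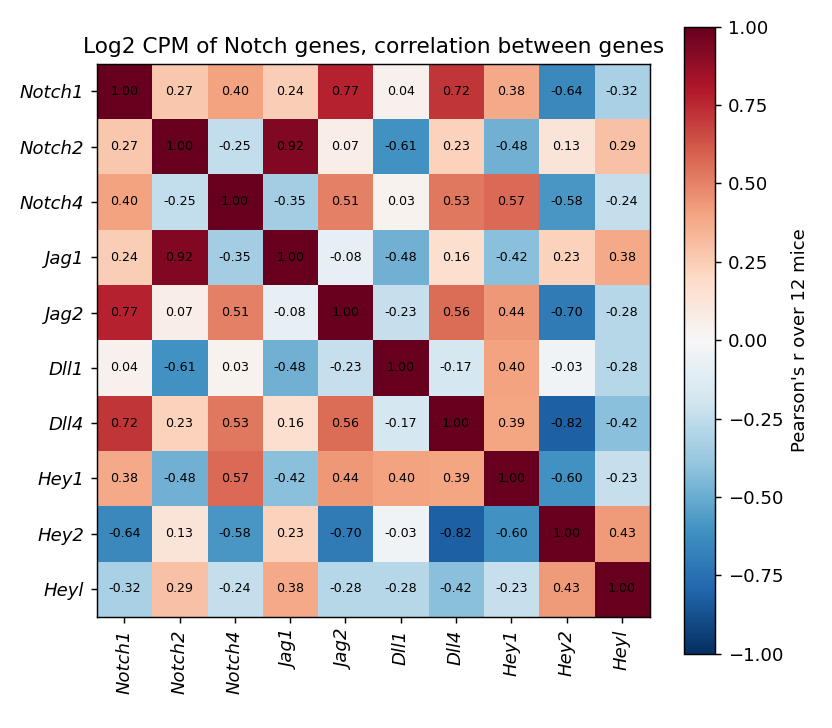
Pearson's r between the log2 CPM of each pair of Notch genes over the 12 mice, from −1 (blue) to 1 (red). Notch2 with Jag1 is the highest pair at 0.92, and Dll4 with Hey2 the lowest at −0.82.

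The genes whose pattern over the 12 mice was most like that of each Notch gene are given as a description, by Pearson's r among the 15857 genes tested. They were Itga8, Pawr and Pcdh7 for Hey2 (0.957 to 0.969), Ankrd35, Plcd1 and Abhd14a for Heyl (0.902 to 0.930) and Acot1, Ddrgk1 and Wdr73 for Hey1 (0.896 to 0.926). Itga8 encodes an integrin chain of smooth muscle. For the receptors they were Git2, 5830417I10Rik and Rspo1 for Notch1 (0.948 to 0.953), Asap2 and Trio for Notch2 (0.954 each) and Adgrg1, Zfp428 and Rassf6 for Notch4 (0.845 to 0.900). For the ligands they were Crtc3, Abl1 and Ndst1 for Jag1 (0.924 to 0.948), Tdrkh, Drp2 and Gm37893 for Jag2 (0.891 to 0.960), Fgfr3, Nsun5 and Sirt1 for Dll1 (0.858 to 0.862) and Sik3, Atxn2 and Srcap for Dll4 (0.943 to 0.968). As the highest of 15857 coefficients over 12 mice, these values are large by selection.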

How the data were processed

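RNA from the thoracic aorta of 12 mice was depleted of ribosomal RNA and sequenced as stranded total RNA, so unspliced transcripts contribute. The authors deposited raw counts per gene symbol, made, per the labels, with CASAVA 1.8.2, STAR 2.5.2b and HTSeq 0.6.1p1 on mm10, and the annotation is not given in the sources used here. In the deposited table no gene sums to under 2 counts over the 12 mice. The 3 rows that name no gene entered neither the library sizes nor the fits. They held 8.02% to 14.9% (reads on no gene), 18.1% to 23.2% (reads aligned to more than 1 place) and 0.606% to 0.698% (ambiguous reads) of each library. Columns were matched to mice by number, 11 in full and A1 by 3 of 4 digits. Each library also carries a number from 1 to 12 of unstated meaning, with controls at 3 to 7 and 12 and AZ6983 mice at the others, and it was tried as a covariate, a choice made after seeing the data. No batch or pairing is given. P-values set each difference or correlation against the variation between these mice.

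Groups were compared with edgeR 4.0.16 in R 4.3.3 (TMM, filterByExpr, quasi-likelihood test, no covariate), with Benjamini-Hochberg adjustment at 10% FDR over 15857 genes and standard errors as the size of the log2 fold change over the square root of F. Alternatives were DESeq2 1.42.0, the tool of the paper, limma-voom (limma 3.58.1), other normalizations and filters, covariates and each mouse left out. Log2 CPM used a prior count of 2. Single values were compared with exact permutation tests over all assignments of the mice (smallest p 0.00216), and correlations with 100000 permutations. Marker scores are the mean log2 CPM of the tested markers. Lengths and positions are from GENCODE M21 (GRCm38). The fits of edgeR, limma-voom and DESeq2 were tested on simulated counts, with changes larger than those of the Notch genes. The exact permutation test was checked on a known case. The correlations, scores, covariates and promoter search were not simulated.

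The genes named were all 10 Notch genes, the pathway list genes with an unadjusted p under 0.05 or otherwise the smallest in their group, and the 3 most similar genes of each Notch gene, except 2 genes that are not reported here. The genes and lists were chosen with earlier results of these data known. The relation of the Notch genes to the no-gene share was added after seeing the data.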

Additional observations from a re-analysis of the deposited data

Results flagged for a closer look

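Values were examined in 52 sets of 6 mice, each set being a Notch gene, a named pathway gene, a marker list or the no-gene share in 1 group. In 3 sets a single mouse lay far from its group, and chance alone gives about 2.6. Heyl was high in A1, at 6.68 log2 CPM with the next AZ6983 mouse at 6.06 and the lowest at 5.82. The endothelial marker score was low in C6, at 5.69 with the other controls between 5.86 and 5.92. The brown fat marker score was also low in C6, at 7.37 with the other controls between 8.03 and 8.32.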

How the results depend on the processing

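The count of Notch genes at 10% FDR and that of pathway genes were 0 under each of the fits run: DESeq2 on every gene and on the filtered genes, limma-voom, RLE and upper quartile normalization, no filter, a minimum mean of 50 counts, 5% FDR, 4 covariates tried singly, and each mouse left out, in which both counts stayed at 0. Over all genes the count at 10% FDR was 92 with DESeq2 on every gene, 84 on the filtered genes, 481 with the endothelial score as a covariate and up to 27 with a mouse left out. Leaving out A4 and A5 together, and adjusting for the smooth muscle score or the library number, were alternatives added once the data had been seen. Of 375 alternative values of single genes, 363 kept their direction and 12 reversed, and none of these passed the threshold. The reading at 5% FDR reuses the main fit, so its counts of 0 and its part of the 375 values were fixed in advance. Adjusted for the no-gene share, Notch2 was −0.0588 and Spen −0.0379. With the endothelial score as a covariate, Notch4 was −0.00010 and Hey1 −0.11, and with the smooth muscle score Hey1 was −0.0043. Without A4 and A5, Jag2 was −0.00096 and Hey1 −0.0541, the difference of mean log2 CPM of Hey1 was −0.0740, and the counts were 0 Notch genes at a permutation p under 0.05 and 2 relations to the marker scores. The causes were not tested. The share of all genes at a permutation p under 0.05 was not counted, with all mice or in any alternative. With each mouse left out, the number of Notch genes at a permutation p under 0.05 ran from 0 to 3 (1 with all mice: Notch1; 3 without C6, 0 without A2, A4 or A5), that of relations to the scores from 0 to 7 (4 with all mice), and that of marker lists that differed from 0 to 1 (Schwann cell, without C3, a log2 difference of 0.71, exact permutation p = 0.0216). The log2 fold change of Heyl then ran from −0.13 to 0.10 and that of Hey1 from −0.0301 to 0.12, and their differences of mean log2 CPM from −0.10 to 0.0918 for Heyl and from −0.0451 to 0.10 for Hey1. The standard errors of the 10 Notch genes ran from 0.0981 (Notch1) to 0.163 (Heyl) on the log2 scale, and limit what could be seen. With the library number as a covariate, 1 Notch gene and 5 pathway genes had an unadjusted p under 0.05, as without it. The share of all genes at that p was not counted with this covariate.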
